A study of Mus musculus with 6 samples.

Results

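The genes described here are 10 genes of goblet cell mucus and secretion, Muc2, Fcgbp, Clca1, Zg16, Tff3, Agr2, Gcnt3, Spink4, Retnlb and Tpsg1. They were found in the deposited table by the Ensembl identifiers that GENCODE M21 assigns to these symbols, and all 10 were present among its 34866 genes. All 10 were also among the 16536 genes that passed a filter on low counts and were tested. RNA was sequenced from adenomas excised from the intestine of C57BL/6J mice aged 100 to 120 days, with 3 libraries from Apc1322T/+ animals and 3 from ApcMin/+ animals. Both groups carry a heterozygous germline truncation of Apc in every cell, the adenomas arise after the other allele is lost, and the protein left by Apc1322T is longer than that of ApcMin and retains binding of β-catenin. All 6 libraries are thus tumours of Apc mutant mice, and no normal epithelium or wild-type tissue stands beside them. Each library was usually a pool of RNA extractions from a single animal. The labels give neither the animal behind a library nor the part of the intestine that an adenoma came from.

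Goblet cells are secretory cells of the intestinal epithelium that store the gel-forming mucin Muc2 in granules and release it to form the mucus layer over the surface. Muc2 is folded in the endoplasmic reticulum with the aid of the protein disulfide isomerase Agr2, receives O-linked sugar chains in the Golgi from enzymes such as Gcnt3, and is secreted with partner proteins such as Fcgbp, Clca1, Zg16 and Tff3. The lineage depends on the transcription factors Atoh1 and Spdef, and the cytokines of type 2 immunity are known to raise its secretory products.

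Sequencing depth ran from 23132461 to 33518324 estimated counts per library. The smallest signal taken as visible, 3 counts, corresponded to 0.0895 to 0.130 CPM (counts scaled to a common library total). Such limits cover counting error only. Levels are given as log2 CPM with a prior count of 2, and a log2 fold change is negative where ApcMin adenomas were lower. Across the table, 0 of 16536 genes (0%) passed an adjusted p under 0.01 in edgeR's quasi-likelihood test, 2495 (15.1%) had an unadjusted p under 0.05, and the median log2 fold change was 0.017. With DESeq2's Wald test, 194 of 17346 genes (1.12%) passed an adjusted p under 0.01. As the labels do not say that each library is a separate animal, the p-values measure the spread between these libraries. Apc1322T replicate 1 and ApcMin replicate 3 stood apart from the other libraries of their genotype in the genes of differentiated villus cells and mast cells, and the values for goblet genes are therefore also given without both. The omission was chosen with their values known, and most of the goblet genes were lowest in them, which narrows the spread that remains, so that p-values obtained without them are too small.

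All 10 goblet genes had a fitted log2 fold change below 0, where 47.6% of all tested genes did. Their median log2 fold change was -0.47. The largest differences were those of Fcgbp, Agr2 and Zg16, which were 1.67, 1.65 and 1.62 times as high in Apc1322T adenomas, and the smallest were those of Gcnt3 and Retnlb, at 1.01 times each. None of the 10 passed an adjusted p under 0.01 (0 of 10), and 4 of them (Agr2, Fcgbp, Zg16 and Tff3) had an unadjusted p under 0.05, a level reached with lower values in ApcMin by 7.60% of all tested genes. In 2 of them, Agr2 and Fcgbp, the 3 ApcMin libraries all lay below the 3 Apc1322T libraries. Libraries that did not overlap were found for 21.0% of all tested genes, and for 9.96% with ApcMin below. The other 8 genes overlapped between the genotypes. DESeq2 called 1 of the 10, Agr2. With any 1 of Apc1322T replicates 2 and 3 and ApcMin replicates 1 and 3 left out, 2 of the 10 genes had an unadjusted p under 0.05. The number over the whole table then lay between 1180 and 1966, against 2495 with all libraries. The median log2 fold change of the 10 genes was -0.21 without ApcMin replicate 3 and -0.65 without Apc1322T replicate 1. Without both Apc1322T replicate 1 and ApcMin replicate 3 it was -0.46. In that fit 6 of the 10 had an unadjusted p under 0.05, again with 0 below an adjusted p of 0.01. The number of genes at an unadjusted p under 0.05 over the whole table also rose, from 2495 to 3598.

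**Figure D1:**
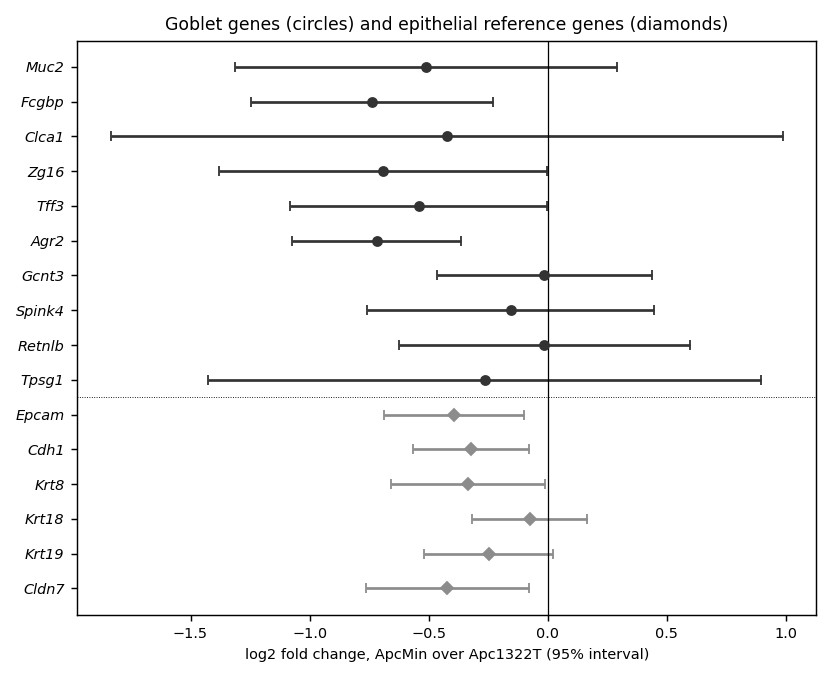
Log2 fold change of ApcMin over Apc1322T adenomas with its 95% interval from edgeR's fit over 3 libraries of each genotype, for the 10 goblet genes (circles) and 6 reference genes of epithelial cells (diamonds). The intervals of 4 goblet genes, Fcgbp, Zg16, Tff3 and Agr2, lie below 0, those of Zg16 and Tff3 by less than 0.01, and the other 6 span 0.

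The libraries were also compared by their epithelial content, for which Epcam, Cdh1, Krt8, Krt18, Krt19 and Cldn7 served as reference genes. All 6 reference genes had a log2 fold change below 0, with a median of -0.33, and 5 did not overlap between the genotypes, with ApcMin below. Of all tested genes, 9.96% were separated in that way. The 6 reference genes did not move alike, with log2 fold changes from -0.42 (Cldn7) to -0.077 (Krt18). The paper counts Cdh1 among the Wnt target genes. Whether the reference genes differ between the genotypes within epithelial cells was not tested. Epcam, an adhesion molecule of epithelial cells, was at 11.36, 11.41 and 11.40 in Apc1322T replicates 1 to 3 and at 11.04, 11.12 and 10.81 in ApcMin replicates 1 to 3 (log2 fold change -0.39, standard error 0.12, adjusted p = 0.286 in edgeR). Of 7 markers of stroma and muscle, all 7 were higher in ApcMin, with a median log2 fold change of 0.84 and a mean level of 5.99 to 7.11 in the Apc1322T libraries and of 7.11 to 7.81 in the ApcMin libraries. Acta2, the actin of smooth muscle, was the only gene of that list whose libraries did not overlap (log2 fold change 0.59, adjusted p = 0.326 in edgeR). Of all tested genes, 21.0% did not overlap in either direction. When the mean of the 6 epithelial genes was subtracted in each library, 7 of the 10 goblet genes remained lower in ApcMin, with a median difference of -0.14. Agr2 was the only one whose libraries did not overlap, by a narrow margin. The part of epithelial and stromal content in the differences of goblet genes was not tested beyond this subtraction, and in tissue RNA fewer goblet cells and less RNA per goblet cell cannot be told apart.

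Muc2 encodes the mucin that forms the gel of intestinal mucus and lies on the plus strand of chromosome 7 at 141690340 to 141754693 (GRCm38). Its level was 9.82, 10.69 and 10.48 log2 CPM in Apc1322T replicates 1 to 3 and 10.18, 10.05 and 9.15 in ApcMin replicates 1 to 3, from 17949 to 41608 counts per library. Apc1322T replicate 1 lay below 2 of the 3 ApcMin libraries, and ApcMin replicate 3 was the lowest of all. The means were 10.33 ± 0.46 and 9.80 ± 0.56 (SD, n = 3 each), and the log2 fold change of -0.51 (standard error 0.33, 95% interval -1.32 to 0.29, adjusted p = 0.474 in edgeR) was smaller than the range within either genotype, which was 0.88 in Apc1322T and 1.03 in ApcMin. Single libraries moved this value, to -0.26 without ApcMin replicate 3, -0.32 without Apc1322T replicate 2 and -0.72 without Apc1322T replicate 1. Leaving out both outlying libraries gave -0.47 (adjusted p = 0.108 in edgeR).

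Fcgbp, a large secreted protein that is bound to Muc2 in mucus, lies on the plus strand of chromosome 7 at 28071236 to 28120862. It was the goblet gene with the most counts, 38197 to 74733 per library, and its levels were 11.08, 11.68 and 11.59 log2 CPM in the Apc1322T libraries and 11.03, 10.55 and 10.57 in the ApcMin libraries. The genotypes did not overlap, but Apc1322T replicate 1 and ApcMin replicate 1 were separated by under 0.1. Fitted over the table, its log2 fold change came to -0.74 (standard error 0.21, 95% interval -1.25 to -0.23, adjusted p = 0.279 in edgeR), and an exact permutation test over the 20 assignments of the libraries gave a two-sided p of 0.10, the smallest that 3 libraries against 3 allow. The adjusted p was 0.0292 with DESeq2. Relative to the epithelial genes the difference of Fcgbp was -0.43, but the libraries then overlapped (p = 0.2, exact permutation test, two-sided). Without both outlying libraries the log2 fold change was -0.82 (adjusted p = 0.0805 in edgeR).

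The 250 bases before the transcription starts of Muc2 and Fcgbp are printed because these genes encode the major proteins of the mucus gel, and that of Agr2 because its levels followed another order over the libraries than those of Muc2. The sequences are from RefSeq on GRCm38.p6, are read 5′ to 3′ on the plus strand, and cover chr7:141690090-141690339 for Muc2, chr7:28070986-28071235 for Fcgbp and chr12:35992675-35992924 for Agr2. The table of RefSeq promoters used here had entries for 4 of the 10 genes, Muc2, Fcgbp, Agr2 and Tpsg1. Capitals mark the E-box CAGCTG, a sequence of the kind that Atoh1 binds.
Muc2: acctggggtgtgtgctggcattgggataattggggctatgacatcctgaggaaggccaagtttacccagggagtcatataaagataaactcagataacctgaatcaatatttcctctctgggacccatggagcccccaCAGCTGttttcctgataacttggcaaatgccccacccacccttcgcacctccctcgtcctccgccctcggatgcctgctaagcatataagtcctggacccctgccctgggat
Fcgbp: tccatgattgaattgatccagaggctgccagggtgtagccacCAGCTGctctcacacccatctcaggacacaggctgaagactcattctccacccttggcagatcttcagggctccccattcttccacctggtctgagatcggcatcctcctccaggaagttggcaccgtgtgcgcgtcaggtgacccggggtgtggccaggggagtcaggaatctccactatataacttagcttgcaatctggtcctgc
Agr2: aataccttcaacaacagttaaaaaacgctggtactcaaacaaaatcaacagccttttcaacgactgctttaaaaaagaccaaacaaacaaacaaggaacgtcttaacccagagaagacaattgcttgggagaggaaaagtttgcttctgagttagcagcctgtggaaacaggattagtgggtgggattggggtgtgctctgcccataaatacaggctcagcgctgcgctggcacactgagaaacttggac
The E-box stood at position -112 from the start in Muc2 and at position -208 in Fcgbp, and 16.3% of 32851 mouse promoter windows of 300 bases held it. None of the 4 motifs searched on both strands occurred in the window of Agr2, the others being a Stat6-type site (TTC and GAA with 4 bases between, in 6.95% of all windows), TGTTTAC (forkhead, 3.65%) and TTTATTG (Cdx-type, 4.6%). The others were found in neither Muc2 nor Fcgbp, and a Stat6-type site stood at position -79 of the second of 2 RefSeq starts of Tpsg1. The RefSeq start of Agr2 at 35992925 lies inside the gene as GENCODE gives it, which begins at 35992907.

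Clca1, a secreted metalloprotease of mucus that is used in its processing, lies on chromosome 3. Its level was 7.60, 9.31 and 9.44 log2 CPM in the Apc1322T libraries and 8.91, 8.92 and 7.42 in the ApcMin libraries. Within each genotype 1 library, Apc1322T replicate 1 or ApcMin replicate 3, lay over 1 log2 unit below the other two, and these low libraries were alike in level. Clca1 had the widest range of the 10 genes over all libraries, 2.02, and the log2 fold change of -0.42 (standard error 0.58, 95% interval -1.83 to 0.99, adjusted p = 0.737 in edgeR) was far smaller than it. The fold change rested on which of these libraries was kept, at -0.80 without Apc1322T replicate 1, -0.08 without ApcMin replicate 3 and -0.46 without both (adjusted p = 0.380, 0.971 and 0.0807 in edgeR).

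Zg16 encodes a lectin of mucus that binds the cell wall of Gram-positive bacteria and lies on chromosome 7. It was measured at 9.81, 10.67 and 10.80 log2 CPM in Apc1322T adenomas and at 9.86, 10.04 and 9.42 in ApcMin adenomas. Apc1322T replicates 2 and 3 lay above all ApcMin libraries, whereas Apc1322T replicate 1 lay among them. This gave a log2 fold change of -0.69 (standard error 0.29, 95% interval -1.38 to -0.0031, adjusted p = 0.330 in edgeR and p = 0.3 in an exact two-sided permutation test). Without both outlying libraries it was -0.78 (adjusted p = 0.0543 in edgeR).

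Tff3, the trefoil peptide of intestinal goblet cells, is known for its part in repair of the epithelium and lies on chromosome 17. Its levels were 9.07, 9.90 and 9.70 log2 CPM in the Apc1322T libraries and 9.14, 9.19 and 8.81 in the ApcMin libraries. The pattern was that of Zg16, with Apc1322T replicate 1 below 2 ApcMin libraries and the other Apc1322T libraries above all of them. For Tff3 the log2 fold change came to -0.54 (standard error 0.23, 95% interval -1.08 to -0.0022, adjusted p = 0.330 in edgeR), and -0.63 without both outlying libraries (adjusted p = 0.0611 in edgeR).

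Agr2, the disulfide isomerase that is needed for production of Muc2, lies on the plus strand of chromosome 12 at 35992907 to 36004087. Its levels were 10.21, 9.87 and 9.82 log2 CPM in Apc1322T replicates 1 to 3 and 9.42, 9.10 and 9.24 in ApcMin replicates 1 to 3, from 13953 to 32355 counts. All Apc1322T libraries lay above all ApcMin libraries, and the library with the most Agr2 was Apc1322T replicate 1, in which the 9 other goblet genes had their lowest Apc1322T level. The means were 9.97 ± 0.21 and 9.25 ± 0.16 (SD, n = 3 each), and the log2 fold change was -0.72 (standard error 0.15, 95% interval -1.07 to -0.36). The unadjusted p was 0.00214 and the adjusted p = 0.257 in edgeR, and the exact permutation test gave the smallest two-sided p of 0.10. DESeq2 gave a log2 fold change of -0.73 and an adjusted p of 0.00201, so that the call depended on the tool. Without both outlying libraries the fitted value was -0.57 (adjusted p = 0.0901 in edgeR). Relative to the epithelial genes the difference of Agr2 was -0.41 (p = 0.1, exact permutation test, two-sided). The genotypes were then still separated, but narrowly, with Apc1322T replicate 3 at -1.02 and ApcMin replicate 1 at -1.07 log2 units.

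Gcnt3, a glycosyltransferase that branches the O-linked chains of mucins, did not follow the other genes. Its levels were 6.43, 7.01 and 6.71 log2 CPM in the Apc1322T libraries and 6.66, 6.46 and 6.99 in the ApcMin libraries, so that ApcMin replicate 3, the library with the least Muc2, held the most Gcnt3 of its genotype. Its log2 fold change of -0.015 (standard error 0.19, 95% interval -0.47 to 0.44, adjusted p = 0.975 in edgeR) was the smallest of the 10, and relative to the epithelial genes the difference was 0.29 in the other direction with overlapping libraries. Without both outlying libraries the fitted value was -0.30.

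Spink4, a Kazal-type protease inhibitor secreted by goblet cells, had levels of 8.75, 8.97 and 9.25 log2 CPM in Apc1322T adenomas and of 9.17, 8.97 and 8.26 in ApcMin adenomas. Only ApcMin replicate 3 lay clear of the other 5 libraries, which lay between 8.75 and 9.25. Spink4 had a log2 fold change of -0.16 (standard error 0.25, 95% interval -0.76 to 0.45, adjusted p = 0.779 in edgeR), which turned to 0.069 without ApcMin replicate 3 and was -0.037 without both outlying libraries.

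Retnlb, an antibacterial resistin-like protein of goblet cells that type 2 cytokines induce, was measured with 425 to 940 counts. Its levels were 4.06, 4.52 and 4.31 log2 CPM in the Apc1322T libraries and 4.72, 4.24 and 3.76 in the ApcMin libraries, and the ApcMin libraries held both the highest and the lowest value. With a log2 fold change of -0.016 (standard error 0.26, 95% interval -0.63 to 0.59, adjusted p = 0.980 in edgeR), a difference in either direction lay within the interval, and the fitted value was 0.088 without both outlying libraries.

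Tpsg1, a membrane-anchored protease of the tryptase family, was the least abundant of the 10, with 121 to 396 counts. It was at 2.62, 3.76 and 3.61 log2 CPM in Apc1322T adenomas and at 3.48, 3.52 and 1.96 in ApcMin adenomas, again with Apc1322T replicate 1 and ApcMin replicate 3 low. A log2 fold change of -0.27 (standard error 0.48, 95% interval -1.43 to 0.90, adjusted p = 0.805 in edgeR) was fitted, which turned to 0.093 without ApcMin replicate 3 and was -0.18 without both outlying libraries. The gene overlaps Cacna1h on the opposite strand, which had 118 to 120 counts in the Apc1322T libraries and 274 to 467 in the ApcMin libraries. The kit kept the strand, but the strand setting used for quantification is not given in the sources used here, and a part of reads from Cacna1h in the counts of Tpsg1 was not tested.

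**Figure D2:**
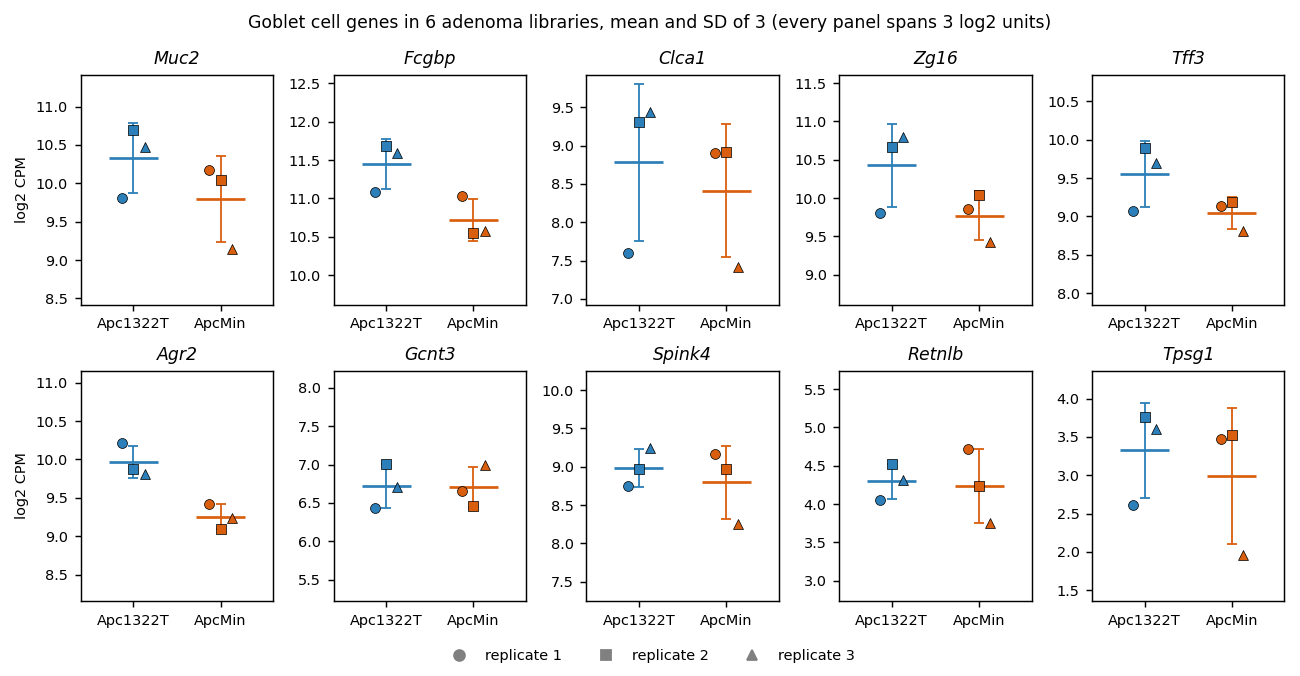
Log2 CPM of the 10 goblet genes in each library (points, with the replicate number as the shape), with the mean (horizontal line) and SD (bar) of the 3 libraries of each genotype. Every panel spans 3 log2 units, so that distances can be compared between genes, and Agr2 and Fcgbp are the genes in which no ApcMin library reaches an Apc1322T library.

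Levels were compared between genes as CPM per kilobase of exon (with the TMM library size), as the mean of the 6 libraries. The order was Tff3 (1324), Spink4 (1021), Zg16 (924), Agr2 (628), Fcgbp (217), Muc2 (159), Clca1 (117), Retnlb (28.2), Gcnt3 (24.7) and Tpsg1 (6.95 CPM per kilobase). At 3 places in this order the libraries of the higher gene all lay above those of the lower. Agr2 had at least 425 and Fcgbp at most 313, Clca1 at least 45.2 and Retnlb at most 37.7, and Gcnt3 at least 20.1 and Tpsg1 at most 9.68 CPM per kilobase. Compared within each library, Muc2 also lay above Clca1 in 6 of 6 libraries, although their ranges overlapped. The other 5 pairs of neighbours overlapped in range and kept their order in 4 or 5 of 6 libraries. The lowest library of Tff3, Spink4 and Zg16 lay at 546, above the highest of the large gel proteins Fcgbp and Muc2. Together the 10 genes took 0.643%, 0.888% and 0.877% of all counts in Apc1322T replicates 1 to 3 and 0.707%, 0.615% and 0.467% in ApcMin replicates 1 to 3, and the share of ApcMin replicate 1 lay above that of Apc1322T replicate 1.

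The libraries of a genotype differed among themselves in a pattern that most goblet genes shared. Of the 10 genes, 7 were lowest in Apc1322T replicate 1 among the Apc1322T libraries and in ApcMin replicate 3 among the ApcMin libraries, where 19.6% of all tested genes were. These were Muc2, Clca1, Zg16, Tff3, Spink4, Retnlb and Tpsg1. Fcgbp and Gcnt3 were also lowest in Apc1322T replicate 1, but their lowest ApcMin library was replicate 2. Agr2 was highest in Apc1322T replicate 1 and lowest in ApcMin replicate 2.

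The same libraries were low in genes of other cells. Mep1b, the meprin protease that is known to cut Muc2 so that mucus of the small intestine is released from the cells, was at 7.66, 9.10 and 9.32 log2 CPM in the Apc1322T libraries and at 8.28, 8.54 and 6.77 in the ApcMin libraries. Of 10 enterocyte markers 7, and of 13 mast cell markers 10, had their lowest library in Apc1322T replicate 1 and in ApcMin replicate 3, as had 19.6% of all tested genes. Mcpt1, a protease of mucosal mast cells, was at 6.31, 9.05 and 7.74 in the Apc1322T libraries and at 8.06, 9.49 and 5.67 in the ApcMin libraries. The mean of the enterocyte markers was 8.81 and 7.76 in the outlying libraries and 9.05 to 10.44 in the other 4. The mean of the mast cell markers was 2.10 and 2.03 there and 3.10 to 4.56 in the other 4. All 4 markers of the distal ileum were also lowest in both libraries, with a mean of 2.00 and 1.90 against 3.23 to 6.39. One of them, Fabp6, was scarce and alike in all Apc1322T libraries, at -0.86, -0.53 and -0.54 log2 CPM. The part of these cells, or of the site of an adenoma, in the levels of goblet genes was not tested.

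**Figure D3:**
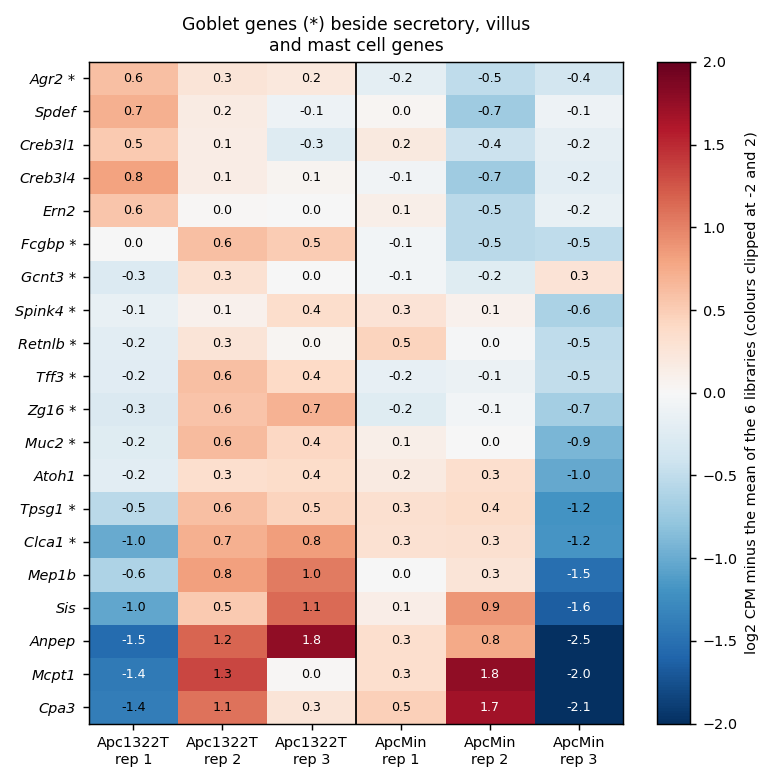
Log2 CPM of each gene minus its mean over the 6 libraries (numbers and colours, the colours ending at -2 and 2), with the goblet genes marked by an asterisk. Apc1322T replicate 1 and ApcMin replicate 3 are low for Muc2, Clca1, Tpsg1, Mep1b, Sis, Anpep, Mcpt1 and Cpa3. Apc1322T replicate 1 is the highest library for Agr2, Spdef, Creb3l1, Creb3l4 and Ern2. Sis, Anpep, Cpa3 and the genes that follow Agr2 were picked with their values known. Of the enterocyte markers 7 of 10, and of the mast cell markers 10 of 13, were lowest in both outlying libraries. Among those that were not, and are not shown, Alpi (11.12) and Kit (5.57 log2 CPM) had their highest ApcMin level in replicate 3.

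The ratio of Agr2 to Muc2 therefore varied between the libraries of each genotype (both as log2 CPM, not per length). Agr2 minus Muc2 was 0.40 log2 units in Apc1322T replicate 1 and 0.094 in ApcMin replicate 3, and between -0.96 and -0.67 in the other 4 libraries. Clca1 minus Muc2 went the other way, with -2.22 and -1.73 in those libraries and -1.38 to -1.05 in the others. Tff3 minus Muc2 was nearly constant in Apc1322T, at -0.75, -0.80 and -0.78, and spread from -1.04 to -0.34 in ApcMin. Zg16 minus Muc2 lay between -0.33 and 0.31 in all libraries, and its genotypes overlapped.

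**Figure D4:**
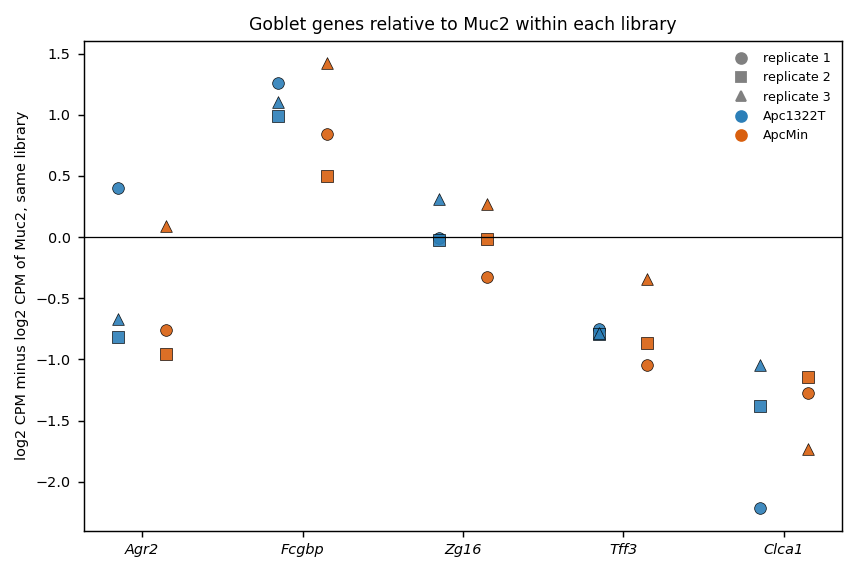
Log2 CPM of 5 goblet genes minus that of Muc2 in the same library, by genotype (colour) and replicate (shape). Agr2 lies above the line at 0, which marks a CPM equal to that of Muc2, only in Apc1322T replicate 1 (0.40) and ApcMin replicate 3 (0.094), while Clca1 is lowest in these same libraries.

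After the values of Agr2 were seen, genes were sought in the lists whose libraries had its order, replicates 1, 2 and 3 from high to low in Apc1322T and replicates 1, 3 and 2 in ApcMin. Of all tested genes 4.55% had that order. It was found for 4 of 14 genes of mucin folding and granule release, namely Ern2, a stress sensor of the endoplasmic reticulum in secretory epithelium, the transcription factors Creb3l1 and Creb3l4, and Rab3d, a small GTPase of secretory granules. It was also found for 2 of 9 secretory transcription factors, Spdef and Foxa3, for Galnt7 and Galnt12 among 23 genes of O-glycosylation, for Muc20 among 8 other mucins, for Prom1 among 7 crypt base and Wnt target genes, and for 1 of the 10 goblet genes, which is Agr2 itself. It was found for 0 of 13 other goblet products. None of the tested Paneth, enteroendocrine, tuft, enterocyte, gastric or mast cell markers had it. Nor did any tested gene of the type 2 cytokine, epithelial reference, stroma and muscle, leukocyte, distal ileum, proximal small intestine or colon lists. Whether any list held the order more often than all tested genes was not tested. Spdef, the factor of goblet cell maturation, was at 6.87, 6.32 and 6.05 log2 CPM in Apc1322T and at 6.20, 5.45 and 6.05 in ApcMin (log2 fold change -0.52, adjusted p = 0.397 in edgeR). Atoh1, the factor that commits cells to the secretory lineages, was instead lowest in Apc1322T replicate 1 and ApcMin replicate 3 as Muc2 was, with 3.29, 3.84 and 3.87 in Apc1322T and 3.67, 3.83 and 2.47 in ApcMin (log2 fold change -0.25).

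Likeness to Muc2 was described by Pearson's r of log2 CPM over the 6 libraries, which share the differences between libraries given above, and no p is attached to it. The goblet genes had r of 0.95 (Tpsg1), 0.92 (Tff3), 0.91 (Clca1), 0.91 (Zg16), 0.87 (Spink4), 0.81 (Retnlb), 0.80 (Fcgbp), 0.36 (Agr2) and -0.0053 (Gcnt3). The 5 genes outside the group with the highest r were Mmaa, Rbbp5, Zfp273, Suv39h2 and Rep15, at 0.989 to 0.997, and 154 such genes had r over 0.95. Rbbp5, a subunit of histone methyltransferase complexes, moved only between 4.78 and 4.99 log2 CPM, so that a high r did not stand for a change of like size.

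Among the other mucins Muc13, Muc3 and Muc6 were abundant. Muc1 (mean 1.56 log2 CPM in Apc1322T and 2.73 in ApcMin) and Muc20 (0.49 and 1.10) were scarce. Of 12 listed, 8 were tested, of which 5 were lower and 3 higher in ApcMin, with a median log2 fold change of -0.28. Muc13, a mucin anchored in the cell membrane, was at 10.22, 11.04 and 10.93 log2 CPM in Apc1322T and at 10.10, 9.57 and 9.55 in ApcMin. Its libraries did not overlap, and the genotypes differed by -1.01 on the log2 scale (ApcMin lower, standard error 0.26, edgeR adjusted p = 0.273, DESeq2 adjusted p = 0.00754), and Apc1322T replicate 1 was low as for Muc2. Muc3, also anchored in the membrane, was at 9.49, 10.61 and 10.35 in Apc1322T and at 9.46, 10.08 and 9.60 in ApcMin, and its log2 fold change of -0.49 (adjusted p = 0.470 in edgeR) stood close to the -0.51 of Muc2. Muc6, a gel-forming mucin of gastric and Brunner's glands, was at 10.57, 9.66 and 9.49 in Apc1322T and at 8.93, 8.62 and 9.92 in ApcMin, highest where Muc2 was lowest. Muc5ac, the mucin of the gastric surface, was at no more than 4.0 in any library, and Muc5b, Muc15 and Muc16 had at most 4 counts in a library.

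The enzymes that build the sugar chains of mucins were mostly lower in ApcMin. Of 24 listed, 23 were tested, of which 20 were lower and 3 higher, with a median log2 fold change of -0.29. That median stands beside -0.33 for the epithelial reference genes. The libraries did not overlap for 8 of the 23, all of them lower in ApcMin, as for 9.96% of all tested genes. An unadjusted p under 0.05 with lower values in ApcMin was found for 5, and for 7.60% of all tested genes. None of the 23 passed the adjusted threshold in edgeR. Galnt10, which starts O-linked chains, was at 6.91, 6.96 and 6.92 log2 CPM in Apc1322T and at 6.49, 6.27 and 6.30 in ApcMin (log2 fold change -0.58, standard error 0.088, adjusted p = 0.257 in edgeR and 0.000295 in DESeq2). Galnt6, an enzyme of the same family, was at 8.35, 8.60 and 8.49 in Apc1322T and at 7.76, 8.03 and 7.88 in ApcMin (log2 fold change -0.59, adjusted p = 0.257 in edgeR and 0.00104 in DESeq2). B3gnt3, which extends the chains, had a log2 fold change of -0.54. These 3 enzymes were named by a rule that requires libraries without overlap between the genotypes. Those of Gcnt3 overlapped, as did those of most enzymes of the list. St6galnac1, a sialyltransferase of mucins, had only 2 to 5 counts per library and was not tested.

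Of 16 genes of mucin folding, granule release and unfolding, 14 were tested, of which 12 were lower and 2 higher in ApcMin, with a median of -0.29. An unadjusted p under 0.05 was found for 3 of the lower genes (7.60% of all tested genes). These were Creb3l4 (log2 fold change -0.68), Cftr, the chloride and bicarbonate channel that supports mucus expansion (-0.55), and Vamp8, a protein of granule fusion (-0.39), with adjusted p of 0.311, 0.263 and 0.287 in edgeR. The libraries of all 3 did not overlap, as for 9.96% of all tested genes with ApcMin below. Of 9 transcription factors of goblet and secretory cells, 7 were lower and 2 higher, with a median of -0.27. Cdx2, the factor of intestinal identity, had a log2 fold change of -0.50 and Elf3, an epithelial Ets factor, of -0.27, both without overlap, while Foxa2 had 1.21 at a low level of 1.48 to 3.69 log2 CPM (adjusted p = 0.312, 0.307 and 0.279 in edgeR).

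Other genes listed as goblet products were also mostly lower, and 2 of them, Tff1 and Tff2, are in the list of gastric markers too. Of 16 listed, 13 were tested, 11 of them lower and 2 higher in ApcMin (Ang4 and Ccl6, of which Ang4 had a lower mean log2 CPM in ApcMin), with a median of -0.37, and 8 of the 13 were lowest in both Apc1322T replicate 1 and ApcMin replicate 3. Tff1, a trefoil peptide of gastric surface cells, was at 5.67, 6.67 and 5.10 log2 CPM in Apc1322T and at 5.02, 4.15 and 5.03 in ApcMin (log2 fold change -1.17, adjusted p = 0.315 in edgeR). Dmbt1, a scavenger receptor protein of mucus, had the highest mean log2 CPM of the list, with 9.69 to 11.67 over the libraries and overlapping genotypes.

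**Figure D5:**
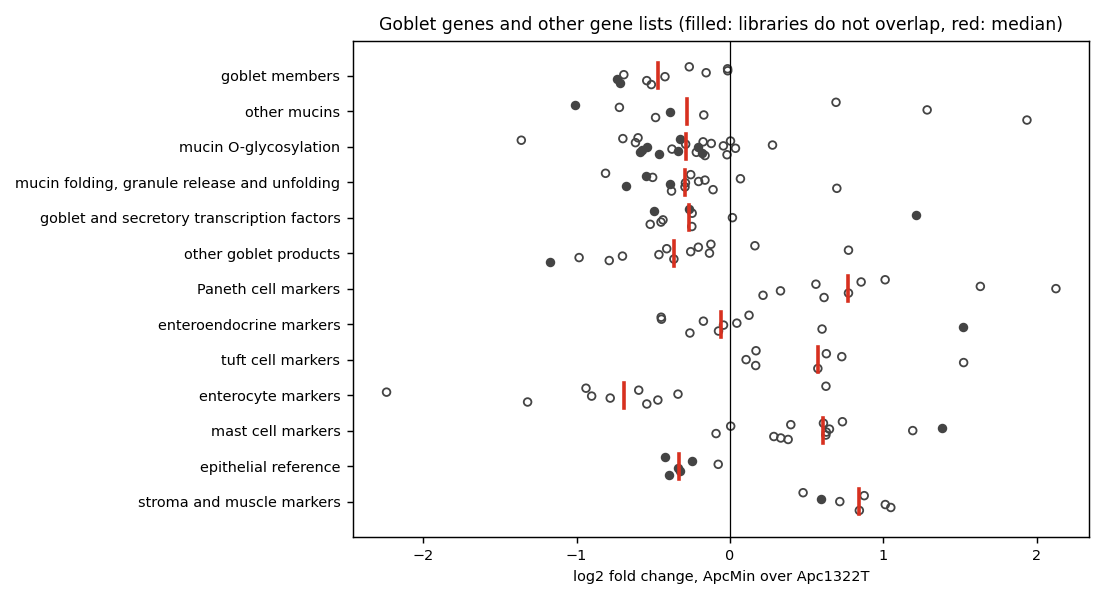
Log2 fold change of ApcMin over Apc1322T for the tested genes of 13 lists (points, filled where the libraries of the genotypes do not overlap), with the median of each list in red. The medians of the goblet genes (-0.47), of the other goblet lists (-0.37 to -0.27) and of the epithelial reference (-0.33) lie below 0. So do those of the enterocyte (-0.69, the lowest shown) and enteroendocrine lists (-0.058). Those of the Paneth (0.77), tuft (0.57), mast cell (0.61) and stroma lists (0.84) lie above.

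Among the cytokines of type 2 immunity, IL-13 and IL-4 are known to induce goblet cell products such as Retnlb and Clca1. Il13 had 0 to 19 counts per library, Il4 1 to 11, Il25 0 to 7 and Il5 0 to 1, all below the filter. Il33, an alarmin cytokine that epithelial and stromal cells make, was well measured, at 7.36, 7.79 and 7.82 log2 CPM in Apc1322T and at 7.55, 6.88 and 7.37 in ApcMin (log2 fold change -0.38, adjusted p = 0.409 in edgeR). Of the 7 genes of this list that were tested, 6 were lower and 1 higher in ApcMin, with a median of -0.35. The higher gene, Il1rl1, the receptor of IL-33, was at 6.61, 6.37 and 6.65 log2 CPM in Apc1322T and at 7.42, 7.31 and 6.67 in ApcMin (log2 fold change 0.62, adjusted p = 0.287 in edgeR). The levels of Retnlb, given above, overlapped between the genotypes. The mast cell markers, which include relatives of Tpsg1, had fitted values above 0 for 12 of 13, with a median of 0.61, although the means of the list overlapped between the genotypes (2.10 to 3.95 in Apc1322T and 2.03 to 4.56 in ApcMin). Ms4a2, with a fitted value of 0.0046, had a lower mean log2 CPM in ApcMin (1.5 against 1.8). Kit alone of the 13 did not overlap (log2 fold change 1.39, adjusted p = 0.257 in edgeR and 7.81e-05 in DESeq2). Libraries without overlap in either direction were found for 21.0% of all tested genes. Kit is also made by interstitial cells of the gut wall. Tpsg1, at -0.27, differed in sign from that median, but shared with Mcpt1 the low libraries.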

How the data were processed

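RNA from 6 adenoma libraries, 3 per genotype by their titles, was sequenced on the same lane as stranded single-end reads of 50 bases. The authors quantified the reads with Salmon on the GRCm38 transcriptome and deposited estimated counts per gene, without normalization, in which a read shared by similar transcripts is divided between them. The annotation release is not given in the sources used here. Estimated counts were rounded. Of 34866 genes, 34652 were matched to symbols by GENCODE M21. Genes were filtered with filterByExpr (minimum count 10, minimum total 15), normalised by TMM and tested in edgeR 4.0.16 (R 4.3.3) by its quasi-likelihood test with robust estimation, with Benjamini-Hochberg adjustment over 16536 genes and a threshold of 0.01. The F statistic gave the standard errors. DESeq2 1.42.0 was the alternative tool, and others were normalization, filter, each library left out and a block on the replicate number. The code was tested on simulated counts.

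The members and the 19 other lists were chosen with earlier results of these data known. Besides the members, genes were named whose libraries did not overlap at an unadjusted p under 0.05 (the 3 with the largest change of a list), the most abundant gene of a list and the 5 genes most like Muc2. Other names were chosen after their values were seen. Permutation tests were exact and two-sided (scipy 1.17.1). Replicates with the same number did not deviate together (r of -0.014, 0.164 and -0.286). Total counts of 23132461 to 33518324 leave the spread between libraries, not counting, as the main error of the members.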

Additional observations from a re-analysis of the deposited data

How the results depend on the processing

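Genes that passed the adjusted threshold of 0.01 numbered 0 with edgeR, which moved to 194 with DESeq2's Wald test, to 1 without the filter on low counts and to 1 when the threshold was 0.05. With 1 library left out it ranged from 0 to 1. The count at an unadjusted p under 0.05 ranged from 1180 to 4117 with 1 library left out, the lowest without Apc1322T replicate 2 and the highest without Apc1322T replicate 1. The 4 goblet genes at that level became 2 with upper quartile normalization, 2 with a filter on a mean of at least 1 CPM, and 2 to 4 with 1 library left out. They were 2 without any 1 of Apc1322T replicate 2, Apc1322T replicate 3, ApcMin replicate 1 and ApcMin replicate 3. The replicate numbers do not pair the libraries, and with the number as a replicate block 2 goblet genes were at that level. Without both outlying libraries there were 6, and the count over the whole table was 3598, against 2495 with all libraries. The cause of these changes was not tested.

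The median log2 fold change of the 10 genes ranged from -0.65 to -0.21 and the difference of their mean log2 CPM from -0.63 to -0.20 with 1 library left out, against -0.47 and -0.41 with all, and the latter was -0.11 relative to the epithelial genes. Agr2 passed the threshold with DESeq2 (log2 fold change -0.73, adjusted p = 0.00201), while its adjusted p in edgeR ranged from 0.0663 to 0.693 with 1 library left out. Muc2, Agr2, Tff3, Fcgbp, Clca1 and Zg16 kept their direction in all 13 alternatives. The direction turned for Gcnt3 with upper quartile normalization (0.045), for Retnlb with the same (0.044) and without both outlying libraries (0.088), an omission chosen after seeing the data that left Gcnt3 at -0.30. With 1 library left out the log2 fold change ranged from -0.35 to 0.069 for Spink4, -0.17 to 0.14 for Gcnt3, -0.29 to 0.19 for Retnlb and -0.54 to 0.093 for Tpsg1. Normalization moved the median of all genes to 0.0065 with DESeq2's size factors and 0.074 with the upper quartile. Depth did not limit the members, the least abundant of which had 121 counts.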

Other observations

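Markers of other secretory lineages of the intestine were read from the same fit, and no test between lists was run. All 9 markers of Paneth cells, which secrete defensins and lysozyme at the crypt base, had a fitted log2 fold change above 0, with a median of 0.77. That median is the value of Ang4, which is also in the list of goblet products, and whose mean log2 CPM was lower in ApcMin (5.54 against 5.60), with ApcMin replicate 3 at 2.48. Of them Lyz1 had an unadjusted p under 0.05, and its libraries overlapped, with 9.64, 9.38 and 10.10 log2 CPM in Apc1322T and 10.12, 10.08 and 10.75 in ApcMin (adjusted p = 0.331 in edgeR). Defensin genes share near-identical sequence, so that their estimated counts depend on how reads were divided. Of tuft cell markers 7 of 7 were higher, with a median of 0.57 and none at an unadjusted p under 0.05 (0 of 7), and of 10 enteroendocrine markers 4 were higher and 6 lower, with a median of -0.058. Neurog3, the factor that commits cells to the endocrine lineage, had a log2 fold change of 1.52 at a level under 1 log2 CPM.

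Of 10 enterocyte markers 9 were lower in ApcMin, with a median of -0.69. Of 9 gastric markers 6 were lower and 3 higher, with a median of -0.50, and Lipf, the gastric lipase, was at -2.19, -0.87 and -2.01 log2 CPM in Apc1322T and at 3.14, 4.11 and 2.93 in ApcMin (log2 fold change 5.40, adjusted p = 0.219 in edgeR and 1.65e-19 in DESeq2). Of 7 crypt base and Wnt target genes 5 were lower and 2 higher (median -0.24), and of 6 leukocyte genes 5 were higher (median 0.52). The 4 markers of the distal ileum had fitted values above 0 (median 2.07), which rested on ApcMin replicates 1 and 2. The mean of the list was 6.29 and 6.39 in these, 1.90 in ApcMin replicate 3 and 2.00 to 3.50 in the Apc1322T libraries, and Cubn had a fitted value of 0.05 with a lower mean log2 CPM in ApcMin (4.74 against 4.94). Fabp6, the ileal bile acid binding protein, was at -0.86, -0.53 and -0.54 in Apc1322T and at 6.99, 6.37 and 0.075 in ApcMin. Of 5 markers of the proximal small intestine 3 were lower and 2 higher (median -0.031), and both tested markers of the colon, of 4 listed, were higher (median 1.20).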
